A study of Drosophila melanogaster with 36 samples.

Results

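The vacuolar-type H+-ATPase (V-ATPase) genes described here were all genes whose FlyBase symbol begins with Vha. The rule took 33 of the 17611 genes in the count tables and used no measured value. By subunit class, 13 of them belong to the V1 sector and 20 to the V0 sector, with 2 accessory genes counted under V0. The V-ATPase is a rotary proton pump. Its cytosolic V1 sector hydrolyses ATP on a ring of A and B subunits, and its membrane V0 sector carries protons through the a subunit and a rotating ring of c subunits. The pump acidifies lysosomes and endosomes, and in neurons it sets up the proton gradient that loads transmitter into synaptic vesicles.

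The libraries came from a translating ribosome affinity purification (TRAP) experiment on adult Drosophila heads, in which ribosomes tagged with GFP in olfactory neurons are pulled down with their mRNAs. Each of 3 genotypes was sampled uninjured and at 7 days post ablation (7 dpa) of the antennae and maxillary palps, the organs that hold the cell bodies of these neurons. Each combination gave an input (RNA of the whole head lysate) and a pulldown in 3 libraries, 36 libraries in all, from heads of 300 flies per genotype and condition. The labels call the 3 libraries technical replicates, so every SE and p-value measures only the spread between these libraries, which may be technical. The sample titles call the uninjured libraries before injury and do not say whether their flies were as old as the 7 dpa flies. In every contrast of 7 dpa with uninjured, here called the injury change, age and injury thus cannot be told apart. The background genotype, w; orco-Gal4/+; ;, has the driver but no tagged ribosome. The wild-type genotype, w; orco-Gal4/+; 5xUAS-GFP::RpL10Ab/+;, adds the tagged ribosomal protein, and dnmnatOE, which carries orco-Gal4/5xUAS-dnmnat together with 5xUAS-GFP::RpL10Ab/+ in the same w stock, adds overexpressed dnmnat, an NAD-synthesising enzyme that delays the degeneration of severed axons. All 3 genotypes carry orco-Gal4, which drives expression in neurons with the olfactory co-receptor Orco, so transgenes act in a small share of the head cells that the inputs sample. Inputs were poly-A selected and pulldowns were not.

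Inputs held 6628633 to 22329307 counts on genes and pulldowns 644358 to 2057294. A further 1.92 to 3.21% of the reads in the input tables and 48.5 to 60.3% in the pulldown tables were listed as ambiguous and entered no test. Levels are given in CPM, counts relative to library size, with sizes scaled by the trimmed mean of M-values (TMM). Orco, the gene of the ablated neurons, lay between 15.3 and 32.5 CPM in uninjured inputs and between 0.147 and 3.76 CPM at 7 dpa. Nmnat lay at 20.2 to 30.2 CPM uninjured and 17.2 to 27.6 CPM at 7 dpa, with overlapping genotypes. In uninjured pulldowns it held 6.70, 17.9 and 18.8 CPM in dnmnatOE, 41.9, 36.5 and 7.10 in wild type and 34.3, 14.6 and 29.3 in background, and the genotypes overlapped at 7 dpa too. Nmnat levels thus did not tell dnmnatOE apart in either fraction, and the label of this genotype was not checked by them. The olfactory neuron markers were thin: of 8, 5 were tested in inputs and only 2 in pulldowns. Orco pulldowns held 6.53, 1.04 and 0 CPM in background, 45.8, 11.6 and 1.77 in wild type and 15.6, 9.84 and 17.3 in dnmnatOE uninjured. At 7 dpa they held 0 to 4.15 CPM over the genotypes. The 10 photoreceptor markers summed to 16430 to 17390 CPM in uninjured wild type pulldowns and 21370 to 22200 in background. Pulldowns thus held RNA of other head cells too.

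Of the 33 members, 21 passed the filter on low counts in inputs, 19 in pulldowns and 20 in the joint fit of both. Levels of different genes are compared as CPM per kb of exon. Vha16-1, which encodes the c subunit of the proton-carrying ring, stood at a median of 248 CPM per kb in inputs and first in pulldowns with 210.3. It took 22.4 to 30.8% of all member counts in inputs. Vha13, the G subunit of the outer stalk, had the highest median in inputs, 281 CPM per kb (207 to 344), a range that overlapped that of Vha16-1 (225 to 327). In pulldowns Vha13 stood at 69.5.

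**Figure D1:**
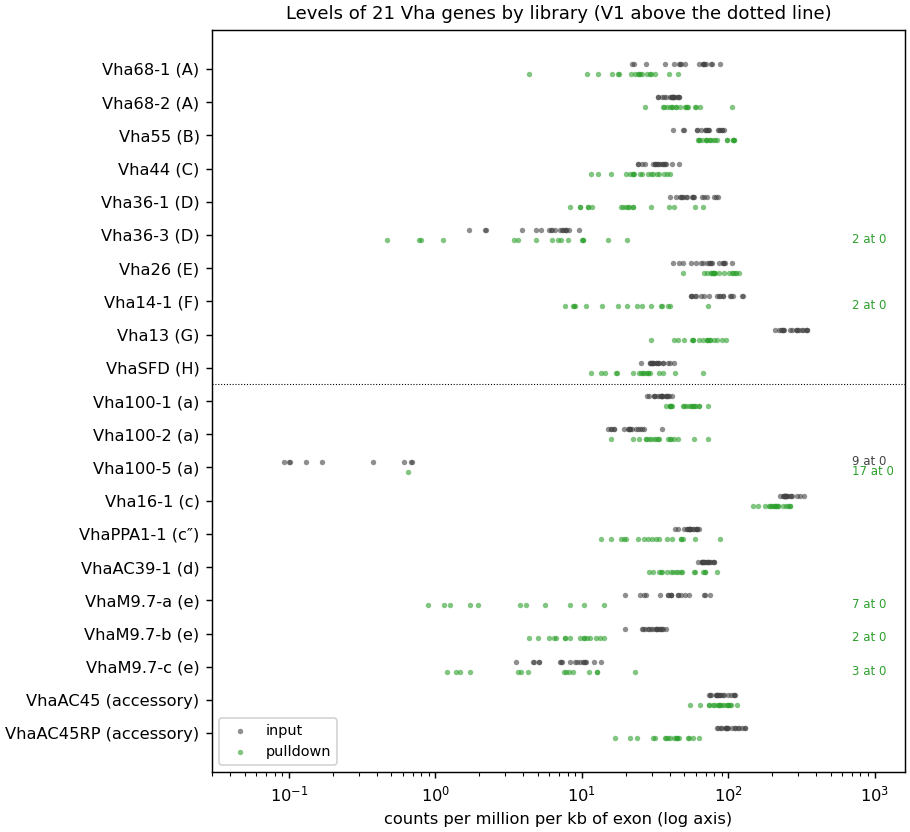
Levels of 21 V-ATPase genes in every library, as CPM per kb of exon on a log axis, with 1 point per library and inputs and pulldowns set apart. Numbers printed beside a gene count libraries at 0. Vha13 and Vha16-1 lie highest in inputs, and VhaM9.7-a drops from a median of 40.7 in inputs to 1.20 in pulldowns.

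Every subunit class had at least 1 expressed gene. For the A subunit, which hydrolyses ATP, both Vha68-1 (56.9 CPM per kb in inputs) and Vha68-2 (41.8) were expressed. Of the a subunits, which form the proton path and anchor the outer stalk, Vha100-1, the form known from fly neurons and synapses, stood at 35.1 and Vha100-2 at 21.2. Vha36-1, the main D subunit of the central shaft, stood at 57.0, against 6.42 for Vha36-3. Of the small membrane subunit e, VhaM9.7-a stood at 40.7, VhaM9.7-b at 32.04 and VhaM9.7-c at 8.62. The single genes of the B, C, E and H classes, Vha55, Vha44, Vha26 and VhaSFD, stood at 71.5, 32.96, 74.6 and 32.03. Vha14-1 (F, in the shaft) stood at 85.2, VhaAC39-1 (d, between shaft and ring) at 70.4 and VhaPPA1-1 (c double prime, a ring subunit) at 54.5. The accessory genes VhaAC45 and VhaAC45RP stood at 86.8 and 99.3. How reads that match both genes of a paralog pair were counted is not given in the sources used here.

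The other 12 members were silent or nearly so. Vha100-3, Vha16-3, Vha16-4 and VhaM9.7-d had 0 counts in all 36 libraries. The other 8 had between 1 and 26 counts in total: Vha100-4 had 26, Vha16-5 had 25, Vha36-2 had 19, Vha14-2 had 11, VhaAC39-2 had 11, Vha68-3 had 7, Vha16-2 had 2 and VhaPPA1-2 had 1. No single library held more than 15 counts of any of them. Several lie beside an expressed paralog. Vha100-4 lies 517 bp from Vha100-2 on chromosome 3R, Vha68-3 lies 178 bp from Vha68-2 on 2L, and VhaPPA1-2 lies 2052 bp from VhaPPA1-1 on 3R. In each of these pairs 1 gene was expressed and its neighbour was not detected beyond these counts.

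At 7 dpa part of the V-ATPase genes had lower levels in inputs, in dnmnatOE 6 of V1 and 2 of V0. A gene was called where edgeR's quasi-likelihood test gave a p-value of 0.05 or less after Benjamini-Hochberg adjustment over the 10437 genes tested, and the log2 fold change was past 0.6 in size. In background inputs 3 of 21 members (14.3%) were called lower and 0 higher, against 5.25% of all genes called lower and 9.99% higher. In wild type 1 (4.76%) was called lower and 0 higher, against 10.7% and 17.8%. In dnmnatOE 8 (38.1%) were called lower and 1 (4.76%) higher, against 24.2% and 26.5% of all genes. The 8 genes lower in dnmnatOE were Vha68-1, Vha55, Vha44, Vha36-3, Vha26 and Vha14-1 of V1, and VhaM9.7-a and VhaM9.7-c of V0. The 3 libraries at 7 dpa all lay below the 3 uninjured ones in 11 of 21 members in background (all genes: 19.6%), 10 in wild type (23.6%) and 15 in dnmnatOE (30.7%).

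The median log2 fold change of the members was -0.23 in background, -0.19 in wild type and -0.46 in dnmnatOE, beside 0.01, -0.02 and -0.06 for all genes. Scaling by upper quartiles, an alternative chosen after seeing the data, moved the median of all genes by -0.11, -0.18 and -0.33, and the members relative to it stayed at -0.24, -0.17 and -0.40 under every scaling. The count of members called in dnmnatOE then became 13 lower and 1 higher, that in wild type 4 lower, against 34.1% of all genes lower and 19.8% higher in dnmnatOE and 18.1% lower in wild type, and the share of all calls that were higher in dnmnatOE fell from 52.3% to 36.7% (background 65.6% to 48.7%, wild type 62.6% to 43.7%).

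**Figure D2:**
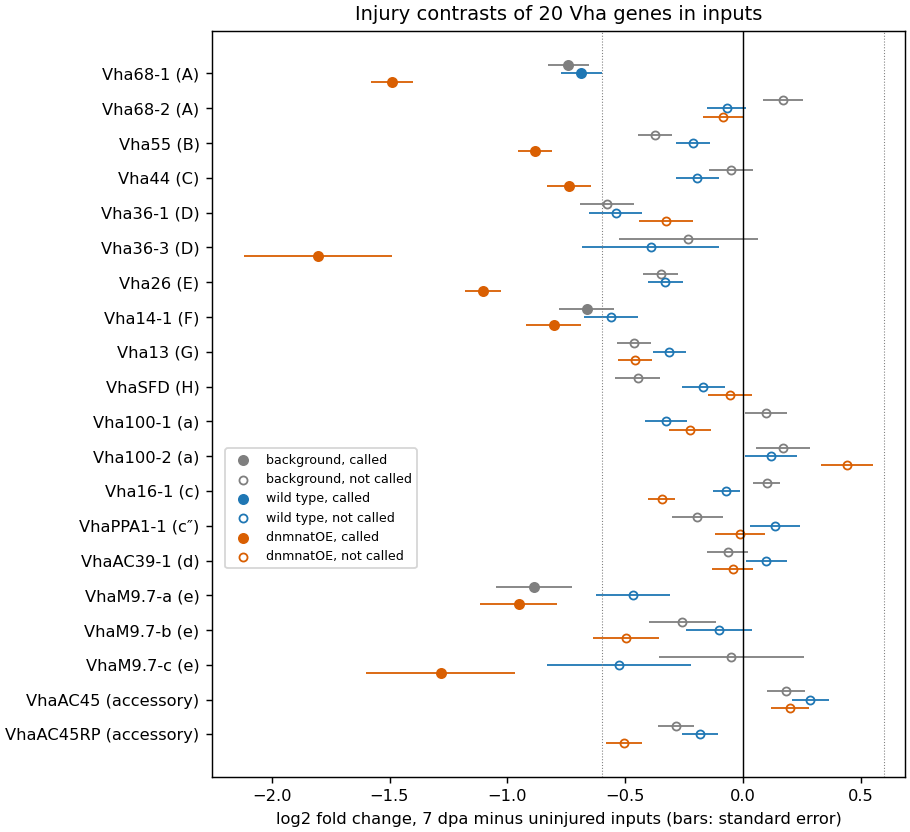
Log2 fold change at 7 dpa against uninjured in inputs, with SE bars, for 20 V-ATPase genes in the 3 genotypes; filled points were called and dotted lines mark ±0.6. Vha68-1 is filled in all 3 genotypes, and its dnmnatOE point at -1.49 lies below those of background (-0.74) and wild type (-0.69).

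Vha68-1 (FBgn0265262, chromosome 2L, 13000770 to 13004107) fell in all 3 genotypes. Uninjured inputs held 207, 206 and 237 CPM in background, 182, 169.5 and 190.0 in wild type and 181, 179 and 182 in dnmnatOE. At 7 dpa the libraries held 126, 128 and 135 CPM in background, 124, 113 and 99.1 in wild type and 73.1, 60.5 and 59.3 in dnmnatOE. No 7 dpa library reached the lowest uninjured one of its genotype, and the dnmnatOE libraries at 7 dpa were the lowest of all 18. The log2 fold change was -0.74 ± 0.09 (adjusted p = 9.69e-10) in background, -0.69 ± 0.09 (adjusted p = 2.48e-09) in wild type and -1.49 ± 0.09 (adjusted p = 1.3e-20) in dnmnatOE.

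Its paralog Vha68-2 (FBgn0263598, chromosome 2L, 12974322 to 12978607) was not called in inputs. Uninjured inputs held 96.8, 91.2 and 91.0 CPM in background, 128, 123 and 112 in wild type and 118, 126 and 127 in dnmnatOE. Injured inputs held 110.3, 103 and 100.4 CPM in background, 116, 114.8 and 114 in wild type and 118, 116 and 116 in dnmnatOE. The fold changes of Vha68-2 were 0.17 ± 0.09, -0.07 ± 0.08 and -0.08 ± 0.08, with adjusted p of 0.146, 0.533 and 0.398. Per kb of exon, Vha68-1 made up 68.8, 69.9 and 72.8% of the A subunit counts in uninjured background inputs and 54.0, 56.1 and 58.1% at 7 dpa. Wild type went from 59.5, 58.7 and 63.7% to 52.5, 50.4 and 47.2%. The dnmnatOE inputs went from 61.1, 59.5 and 59.6% to 38.9, 34.9 and 34.5%, so Vha68-2 was the larger part there after injury. In each genotype the shares before and after injury did not overlap (two-sided exact permutation p = 0.1, the smallest that 3 against 3 allows, 0.204 after Benjamini-Hochberg adjustment over 96 such tests).

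Vha55, the B subunit that alternates with A in the ATP-hydrolysing ring (FBgn0005671, chromosome 3R, 12623762 to 12627829), held 252, 254 and 262 CPM in background, 197, 202 and 206 in wild type and 244, 239 and 240.2 in dnmnatOE in uninjured inputs. At 7 dpa it held 197, 192 and 204 CPM in background, 169.5, 181 and 171 in wild type and 139, 137 and 117 in dnmnatOE. Injured libraries lay below uninjured ones in every genotype. It fell in dnmnatOE, -0.88 ± 0.07 (adjusted p = 1.56e-15), while the changes in background, -0.37 ± 0.07 (adjusted p = 3.97e-05), and wild type, -0.21 ± 0.07 (adjusted p = 0.0127), were under the fold threshold.

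Vha26, the E subunit of the outer stalk (FBgn0283535, chromosome 3R, 5591763 to 5595356), held 253, 271 and 270.0 CPM in background, 219, 222 and 226 in wild type and 311, 279.9 and 274 in dnmnatOE uninjured. After injury it held 210.1, 195 and 217 CPM in background, 191, 178 and 162 in wild type and 144, 136 and 123 in dnmnatOE. The dnmnatOE libraries were the highest of all inputs before injury and the lowest after it. The change was -1.10 ± 0.07 (adjusted p = 1.45e-18) there, against -0.35 ± 0.07 (adjusted p = 0.000174) in background and -0.33 ± 0.07 (adjusted p = 0.0002) in wild type, both under the fold threshold. Vha44, the C subunit that joins the outer stalk to V0 (FBgn0287825, chromosome 2R, 16324813 to 16336637), held 144, 133 and 142 CPM in background, 128, 146 and 137 in wild type and 167, 186 and 152 in dnmnatOE in uninjured inputs. Injured inputs held 128, 127 and 149 CPM in background, 104, 133 and 123 in wild type and 97.0, 97.1 and 109 in dnmnatOE. Its libraries overlapped in background and wild type, and only the dnmnatOE groups were apart. Vha44 fell in dnmnatOE, -0.74 ± 0.09 (adjusted p = 8.04e-10), with -0.05 ± 0.09 (adjusted p = 0.763) in background and -0.19 ± 0.09 (adjusted p = 0.079) in wild type. Its exons overlap those of Hmgs over 3.68% of their length, and whether reads were counted by strand is not given in the sources used here.

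Vha14-1, the F subunit of the central shaft (FBgn0262512, chromosome 2R, 15679426 to 15680084), held 82.1, 70.9 and 83.3 CPM in background, 58.2, 60.7 and 57.2 in wild type and 67.4, 61.0 and 69.3 in dnmnatOE uninjured. Its 7 dpa inputs held 55.1, 49.0 and 44.8 CPM in background, 36.5, 43.2 and 39.8 in wild type and 37.5, 36.8 and 38.9 in dnmnatOE, all below the uninjured libraries of their genotype. It fell in background, -0.66 ± 0.12 (adjusted p = 7.88e-06), and dnmnatOE, -0.80 ± 0.12 (adjusted p = 3.57e-08), and stood just under the fold threshold in wild type, -0.56 ± 0.12 (adjusted p = 5.91e-05). Without background 7 dpa replicate 3 the background change was -0.60 and no longer passed the fold threshold, and without wild type 7 dpa replicate 2 the wild type change was -0.62 and passed it. Vha36-3, the weakly expressed D subunit paralog (FBgn0040377, chromosome X, 2579091 to 2580560), held 10.1, 10.6 and 10.1 CPM in background, 9.52, 8.01 and 9.22 in wild type and 8.08, 9.60 and 9.88 in dnmnatOE in uninjured inputs. Its 7 dpa inputs held 6.26, 12.3 and 7.68 CPM in background, 8.55, 6.78 and 5.05 in wild type and 2.19, 2.84 and 2.86 in dnmnatOE. Only in dnmnatOE were the groups apart, and there it fell by 1.80 ± 0.31 on the log2 scale (adjusted p = 1.84e-06). Background and wild type gave -0.23 ± 0.29 (adjusted p = 0.643) and -0.39 ± 0.29 (adjusted p = 0.292).

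Of the other V1 genes, Vha36-1, the main D subunit (FBgn0022097, chromosome 2R, 15541435 to 15542498), held 85.7, 90.7 and 87.8 CPM in background, 76.1, 73.2 and 61.7 in wild type and 61.2, 55.2 and 70.7 in dnmnatOE in uninjured inputs. In injured inputs it held 55.8, 60.1 and 61.3 CPM in background, 52.6, 42.5 and 49.9 in wild type and 51.2, 51.0 and 47.0 in dnmnatOE. Its 7 dpa libraries lay below the uninjured ones in all 3 genotypes, with changes of -0.58 ± 0.12, -0.54 ± 0.11 and -0.33 ± 0.11, none past the fold threshold. The background value reached -0.61 without background 7 dpa replicate 3, and the wild type value -0.63 without uninjured replicate 3 and -0.61 without 7 dpa replicate 1. Vha13 (FBgn0283536, chromosome 3R, 19643018 to 19644386) held 320.1, 324 and 324 CPM in background, 272, 278 and 279.8 in wild type and 301, 308 and 287 in dnmnatOE in uninjured inputs. After injury it held 248, 259 and 195 CPM in background, 225, 217 and 227 in wild type and 209.9, 224 and 218 in dnmnatOE. It too was lower in every injured library, with changes of -0.46 ± 0.07, -0.31 ± 0.07 and -0.46 ± 0.07 and adjusted p of 8.8e-07, 0.00031 and 2.38e-07 but under the fold threshold. VhaSFD, the H subunit that restrains the ATPase of free V1 (FBgn0027779, chromosome 2L, 16722883 to 16727826), held 114, 109 and 121 CPM in background, 85.8, 90.9 and 94.4 in wild type and 101, 101 and 86.1 in dnmnatOE in uninjured inputs. Injured inputs held 83.1, 86.4 and 82.5 CPM in background, 83.4, 85.6 and 72.3 in wild type and 93.5, 94.7 and 90.3 in dnmnatOE. Its changes ran from -0.45 ± 0.10 in background to -0.05 ± 0.09 in dnmnatOE, where the libraries overlapped.

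**Figure D3:**
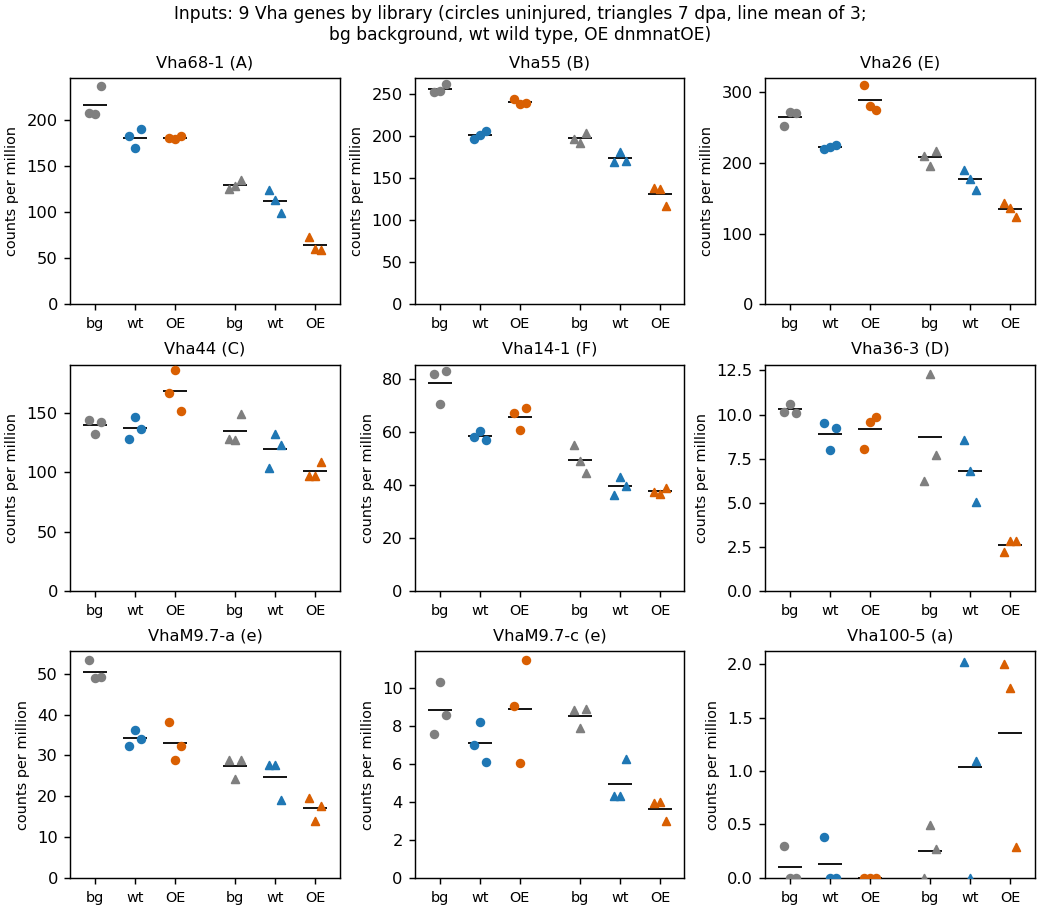
CPM in each input library for 9 V-ATPase genes, uninjured and 7 dpa in the 3 genotypes, 1 point per library with a line at each group mean. The dnmnatOE libraries at 7 dpa lie lowest for Vha68-1 (59.3 to 73.1 CPM) and Vha26 (123 to 144 CPM).

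In V0, VhaM9.7-a, an e subunit (FBgn0035521, chromosome 3L, 4262705 to 4263464), held 53.5, 48.9 and 49.1 CPM in background, 32.4, 36.2 and 34.1 in wild type and 38.2, 28.8 and 32.2 in dnmnatOE uninjured. At 7 dpa it held 28.98, 24.1 and 28.9 CPM in background, 27.7, 27.7 and 18.95 in wild type and 19.6, 13.9 and 17.7 in dnmnatOE. Its injured libraries were all below the uninjured ones of their genotype. It fell in background, -0.89 ± 0.16 (adjusted p = 1.46e-05), and dnmnatOE, -0.95 ± 0.16 (adjusted p = 1.21e-06), with -0.47 ± 0.16 (adjusted p = 0.0129) in wild type. VhaM9.7-c (FBgn0028664, chromosome 3L, 4186018 to 4186865) held 7.59, 10.3 and 8.59 CPM in background, 7.02, 8.24 and 6.11 in wild type and 9.08, 6.03 and 11.5 in dnmnatOE in uninjured inputs. Its 7 dpa inputs held 8.84, 7.88 and 8.898 CPM in background, 4.30, 4.30 and 6.25 in wild type and 3.93, 3.99 and 3.01 in dnmnatOE. It fell in dnmnatOE, -1.28 ± 0.32 (adjusted p = 0.000437), and its groups overlapped in background and wild type.

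Vha100-5 (FBgn0032373, chromosome 2L, 11738948 to 11744524) was the 1 member called higher. It had 0 counts in all 3 uninjured dnmnatOE inputs and 2.00, 1.78 and 0.293 CPM at 7 dpa (adjusted p = 0.00357). The filter on low counts let it in through the libraries where it was high, so this p-value is not independent of that selection. With only the dnmnatOE groups in the fit it was not tested, and the other 12 alternatives kept the call. The mean of these 7 dpa libraries, 1.355 CPM, was at least 8.30-fold above a floor of 3 counts per library. Replicate 3 alone lay much nearer that floor, which was 0.163 CPM. Wild type inputs at 7 dpa held 2.02, 0 and 1.09 CPM, overlapping the uninjured ones, and the change was called there without uninjured replicate 1 (adjusted p = 0.03). Its level was the lowest of the 21, with 135 counts over all inputs, and 18.1% of its exon length overlaps an antisense RNA on the opposite strand, so its counts are uncertain.

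No other V0 gene passed the fold threshold. Vha16-1, the ring subunit (FBgn0262736, chromosome 2R, 6625242 to 6633090), held 694, 754 and 733 CPM in background, 811, 747 and 824 in wild type and 958, 1007 and 907 in dnmnatOE in uninjured inputs. In injured inputs it held 768, 735 and 834 CPM in background, 758, 773 and 736 in wild type and 754, 770.0 and 737 in dnmnatOE. Its injured libraries were below the uninjured ones only in dnmnatOE, -0.34 ± 0.06 (adjusted p = 7.39e-07). Vha100-1 (FBgn0028671, chromosome 3R, 29131193 to 29137980) held 114.9, 116 and 113 CPM in background, 135, 129 and 123 in wild type and 126, 109 and 116 in dnmnatOE in uninjured inputs. After injury it held 124, 127 and 116 CPM in background, 115.5, 91.1 and 102 in wild type and 102, 103 and 94.7 in dnmnatOE, with changes of 0.10 ± 0.09, -0.33 ± 0.09 and -0.23 ± 0.09. The other expressed a subunit gene, Vha100-2, held 67.6 to 71.4 CPM uninjured and 82.5 to 113 CPM at 7 dpa in dnmnatOE, 0.44 ± 0.11 (adjusted p = 0.000474), under the fold threshold. Its share of the a subunit counts per kb was 36.7 to 39.2% before injury and 44.6 to 54.7% after it in dnmnatOE, 35.02 to 36.3% and 41.2 to 43.6% in wild type, and 30.7 to 31.01% and 29.9 to 33.8% in background. VhaAC39-1, the d subunit (FBgn0285910, chromosome X, 3880748 to 3882967), held 131, 134 and 143 CPM in background, 123, 119 and 121 in wild type and 124, 130.3 and 123 in dnmnatOE in uninjured inputs. Injured inputs held 142, 118 and 129 CPM in background, 129, 119 and 141 in wild type and 118, 112 and 135 in dnmnatOE, overlapping in every genotype.

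VhaPPA1-1 (FBgn0028662, chromosome 3R, 14902330 to 14904061) held 85.6, 81.7 and 81.3 CPM in background, 72.7, 70.7 and 73.7 in wild type and 58.8, 83.1 and 68.0 in dnmnatOE in uninjured inputs. Its 7 dpa inputs held 72.9, 73.8 and 70.6 CPM in background, 78.3, 77.2 and 83.2 in wild type and 73.7, 61.0 and 73.0 in dnmnatOE. Its largest input change was -0.19 ± 0.11 (adjusted p = 0.201) in background. VhaM9.7-b ranged over 23.98 to 45.5 CPM (median 39.0), with -0.50 ± 0.14 (adjusted p = 0.00205) in dnmnatOE, which reached -0.62 without 7 dpa replicate 1. Of the accessory genes, VhaAC45RP (FBgn0051030, chromosome 3R, 30164692 to 30166419) held 198, 193 and 186 CPM in background, 177, 185 and 167 in wild type and 209, 218 and 219 in dnmnatOE in uninjured inputs. In injured inputs it held 159, 165 and 150.1 CPM in background, 161, 165 and 141 in wild type and 150.1, 143 and 163 in dnmnatOE. It was lower in every injured library, -0.28 ± 0.08, -0.18 ± 0.08 and -0.51 ± 0.08, whereas VhaAC45, which helps V0 assemble, ranged over 149.6 to 225 CPM (median 175) with changes of 0.18 ± 0.08, 0.28 ± 0.08 and 0.20 ± 0.08.

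Summed over sectors, V1 genes went from 1585 to 1210 CPM in background, a ratio of 0.764, with 0.802 in wild type and 0.617 in dnmnatOE. V0 genes without the accessory ones had ratios of 1.02, 0.956 and 0.837. Vha16-1 alone held 694 to 1007 CPM over the inputs, where these V0 sums were 1174 to 1477 CPM, so the V0 ratios mostly follow this gene. The V1 libraries did not overlap between conditions in any genotype (two-sided exact permutation p = 0.1, the smallest possible, adjusted 0.204). For V0 the exact p was 0.6, 0.2 and 0.1. The share of V1 in the summed counts per kb of both sectors at 7 dpa lay below its uninjured range in every genotype. It was 62.5 to 63.6% and then 54.6 to 59.0% in background, 59.1 to 60.4% and then 54.5 to 55.4% in wild type, and 58.7 to 60.2% and then 53.1 to 54.6% in dnmnatOE. Without TMM scaling the members summed to 3881 CPM in uninjured dnmnatOE inputs and 1719 at 7 dpa, with 3369 and 2316 in wild type and 3637 and 3066 in background.

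Markers of several cell types moved with these values in the same inputs. The 5 neuron markers summed to 1108 to 1143 CPM in uninjured dnmnatOE inputs and 345 to 362 at 7 dpa, with 4 of 5 called lower. In wild type they summed to 918 to 935 CPM uninjured and 589 to 642 at 7 dpa, also with 4 called lower. In background the sums were 1122 to 1127 and 798 to 920.4 CPM, with none of the 5 called by edgeR. Muscle markers summed to 2107 to 2230 CPM in uninjured dnmnatOE and 510.4 to 548 at 7 dpa, with 4 of 4 called lower there and none called in the other genotypes. In dnmnatOE 4 of 5 glia and 6 of 10 photoreceptor markers were called lower. Summed fat body markers were at 58540 to 66010 CPM in uninjured dnmnatOE and 241500 to 266800 at 7 dpa, with 4 of 5 called higher. Injured wild type inputs held 136100 to 147200 CPM of them and injured background inputs 70850 to 82520. All 7 antennal support markers were lower in each genotype, and 2 of 3 blood cell markers were higher. Of all genes, 5.25%, 10.7% and 24.2% were called lower in background, wild type and dnmnatOE, and 9.99%, 17.8% and 26.5% higher. The part of these markers' cell types in the changes of the V-ATPase genes was not tested. In whole heads fewer cells of a type and less RNA per cell cannot be told apart.

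Other genes tied to the pump were counted in the same inputs. The RAVE complex joins V1 to V0, and of its 3 genes Rbcn-3A was called lower in dnmnatOE inputs, -0.61 ± 0.11 (adjusted p = 5.65e-06), with no call in background or wild type. Of 13 lysosome genes tested, 5, 7 and 8 were called higher in background, wild type and dnmnatOE, where 9.99%, 17.8% and 26.5% of all genes were called higher, and 1 was called lower in dnmnatOE (all genes 24.2%). The protease gene cathD changed by 0.79 ± 0.06, 1.64 ± 0.06 and 3.05 ± 0.06. Of 11 genes of TORC1 signalling on lysosomes, 3, 5 and 6 were called higher and 0 lower in each, beside the same shares of all genes. Under upper-quartile scaling the lysosome counts were 2, 6 and 8, and those of TORC1 2, 4 and 4 with 2, 0 and 1 lower, where 7.6%, 14.1% and 19.8% of all genes were higher and 7.99%, 18.1% and 34.1% lower.

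The vesicular transmitter transporters, which use the proton gradient of the pump, were called lower in 0, 2 and 4 of 5 genes, beside 5.25%, 10.7% and 24.2% of all genes (0, 4 and 5 under upper-quartile scaling), with -2.02 ± 0.12 for VGlut and -1.46 ± 0.14 for VAChT in dnmnatOE. Of 13 mitochondrial ATP synthase genes, 2 were called lower in background, 1 higher in wild type, and 3 higher and 3 lower in dnmnatOE. Under upper-quartile scaling 0, 1 and 1 were higher and 4, 3 and 6 lower. Of 8 chloride channels, sodium-proton exchangers and carbonic anhydrases, 1 rose and 1 fell in background and in wild type, and 3 rose and 3 fell in dnmnatOE, where CAH2 changed by -2.11 ± 0.14. Under upper-quartile scaling these became 0, 1 and 2 higher and 1, 2 and 4 lower. Beside these lists, 9.99%, 17.8% and 26.5% of all genes were called higher in background, wild type and dnmnatOE, and 5.25%, 10.7% and 24.2% lower. With upper-quartile scaling the shares were 7.6%, 14.1% and 19.8% higher and 7.99%, 18.1% and 34.1% lower.

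Tested directly, the injury change differed between dnmnatOE and wild type in 4 members, all more negative in dnmnatOE, against 9.15% of all genes called in that direction. The difference of the log2 fold changes was -0.80 ± 0.12 (adjusted p = 5.91e-07) for Vha68-1, -0.77 ± 0.10 (adjusted p = 3.21e-08) for Vha26, -0.67 ± 0.10 (adjusted p = 4.08e-07) for Vha55 and -1.41 ± 0.42 (adjusted p = 0.00834) for Vha36-3. For Vha55 it was -0.59 without dnmnatOE 7 dpa replicate 3, under the fold threshold. Vha44, -0.54 ± 0.13 (adjusted p = 0.00076), stood just below the threshold and passed it without any of 3 libraries (-0.61 without dnmnatOE uninjured replicate 3, -0.64 without wild type 7 dpa replicate 1, -0.60 without dnmnatOE 7 dpa replicate 3).

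At 7 dpa 2 members were lower in dnmnatOE than in wild type inputs, against 7.27% of all genes: Vha68-1, -0.80 ± 0.09 (adjusted p = 3.57e-10), and Vha36-3, -1.37 ± 0.31 (adjusted p = 0.000513). VhaM9.7-a joined them without wild type 7 dpa replicate 3 (-0.69) or dnmnatOE 7 dpa replicate 1 (-0.64), and without the former its injury change also differed (-0.64). Before injury 0 members were called between these genotypes with edgeR or DESeq2, against 7.54% of all genes called by edgeR. At an unadjusted p under 0.05 there were 2713 of all 10437 genes and 5 of 21 members. Those 5 were higher in dnmnatOE and included Vha26, 0.38 ± 0.07 (adjusted p = 7.96e-05), and Vha44, 0.30 ± 0.09 (adjusted p = 0.015). Between wild type and background 0 members were called uninjured with edgeR or DESeq2, against 6.52% of all genes called by edgeR. Here 12 of 21 members and 2399 of 10437 genes had an unadjusted p under 0.05. At 7 dpa the count was again 0 with edgeR, against 14.6% of all genes called. There 9 members and 3741 of all genes had an unadjusted p under 0.05. In the same contrast DESeq2 called VhaM9.7-c lower in wild type (-0.82, adjusted p = 0.0292), as did edgeR without wild type 7 dpa replicate 3 (-0.99). Without wild type uninjured replicate 2, VhaM9.7-a was called lower than background before injury (-0.60). These genotypes differ in the transgene and in the flies they came from, which cannot be told apart.

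The pulldowns showed few changes in V-ATPase genes and varied more. Of 19 members tested among 7213 genes, 1 was called higher after injury in wild type, VhaPPA1-1, against 3.92% of all genes, and 1 lower in dnmnatOE, Vha26, against 4.49%. In background, whose pulldowns hold no tagged ribosome, edgeR and DESeq2 called 0, against 2.58% of all genes called by edgeR. At an unadjusted p under 0.05 there were 1 member and 917 of the 7213 genes. No member's injury change differed between dnmnatOE and wild type (0 with edgeR and DESeq2), against 3.05% of all genes called by edgeR. Here 1 member and 1013 of the 7213 genes had an unadjusted p under 0.05.

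VhaPPA1-1 pulldowns held 56.3, 64.5 and 41.0 CPM in background, 26.2, 18.2 and 21.3 in wild type and 27.3, 38.5 and 36.1 in dnmnatOE uninjured. At 7 dpa they held 25.2, 45.3 and 51.5 CPM in background, 79.9, 119 and 66.3 in wild type and 64.8, 43.7 and 32.97 in dnmnatOE. The 3 injured wild type libraries were the highest of all 18, and the uninjured wild type ones were low. The change was 2.00 ± 0.48 (adjusted p = 0.00454) in wild type, 0.48 ± 0.44 (adjusted p = 0.644) in dnmnatOE and -0.42 ± 0.45 (adjusted p = 0.786) in background. The difference between dnmnatOE and wild type was -1.52 ± 0.65 (adjusted p = 0.25) and was not called. The wild type call held under all 13 alternatives (adjusted p 0.000148 to 0.0485).

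Vha26 pulldowns held 327, 348 and 298 CPM in background, 229, 234 and 332 in wild type and 274, 309 and 314 in dnmnatOE uninjured. At 7 dpa the values were 254, 229 and 199 CPM in background, 222, 222 and 237 in wild type and 208, 144 and 234 in dnmnatOE. The dnmnatOE groups did not overlap, -0.60 ± 0.19 (adjusted p = 0.0272), with -0.51 ± 0.20 (adjusted p = 0.184) in background and -0.22 ± 0.20 (adjusted p = 0.602) in wild type. The dnmnatOE call sat at the fold threshold and was lost when ribosomal RNA genes were left out (-0.59) and without dnmnatOE uninjured replicate 2 (-0.63, adjusted p = 0.0608) or 3 (-0.60, 0.0812) or 7 dpa replicate 2 (-0.48, 0.191), in a range of adjusted p from 0.00299 to 0.191 over 13 alternatives. In the same dnmnatOE pulldowns 3 of 4 muscle and 2 of 5 glia markers were called lower, against 4.49% of all genes. Of the neuron markers 0 of 5 changed by call. The part of these cell types in the Vha26 value was not tested.

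Vha68-2 pulldowns held 101, 147 and 99.7 CPM in background, 114, 121 and 129.5 in wild type and 140.3, 111 and 121 in dnmnatOE uninjured. Injured pulldowns held 144, 106 and 75.1 CPM in background, 176, 295 and 164 in wild type and 114, 142 and 165 in dnmnatOE. The injured wild type libraries all exceeded the injured background ones and overlapped dnmnatOE at its replicate 3. Vha68-2 was higher in wild type than in background at 7 dpa, 0.96 ± 0.27 (adjusted p = 0.0335), the 1 member called there against 2.22% of all genes. That call was lost when only these groups entered the fit (0.95, adjusted p = 0.058) and without background 7 dpa replicate 2 (0.94, 0.107) or 3 (0.76, 0.227) or wild type 7 dpa replicate 2 (0.64, 0.372), in a range of 0.0108 to 0.372 over 13 alternatives. Its injury change in wild type, 0.81 ± 0.28 (adjusted p = 0.0641), was called by DESeq2 and without 7 dpa replicate 3.

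**Figure D4:**
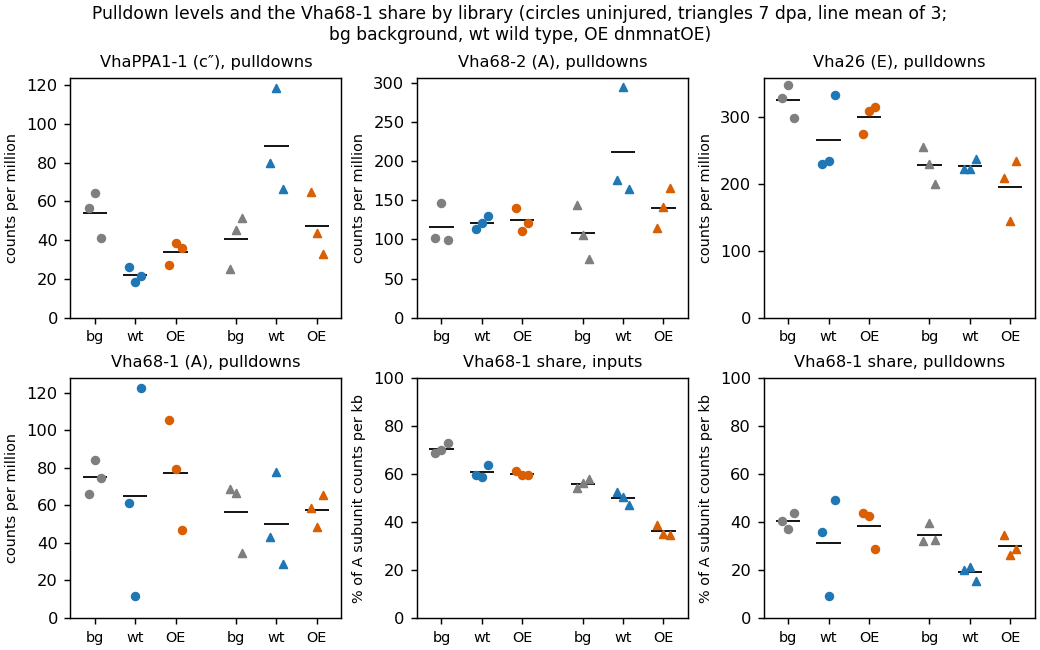
CPM in each pulldown library for VhaPPA1-1, Vha68-2, Vha26 and Vha68-1, and the share of Vha68-1 in the A subunit counts per kb in inputs and pulldowns. The injured wild type libraries stand highest for VhaPPA1-1 (66.3 to 119 CPM), and the Vha68-1 share in inputs drops to 34.5 to 38.9% in injured dnmnatOE.

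Vha68-1 was not called in pulldowns. It held 66.1, 84.3 and 74.8 CPM in background, 61.5, 11.6 and 122 in wild type and 105, 79.6 and 47.0 in dnmnatOE uninjured. After injury the values were 68.6, 66.7 and 34.8 CPM in background, 42.9, 78.0 and 29.01 in wild type and 58.5, 48.4 and 65.3 in dnmnatOE, with injury changes of -0.40 ± 0.46, -0.37 ± 0.47 and -0.42 ± 0.45. Wild type uninjured replicates 2 and 3, at 11.6 and 122 CPM, were the lowest and highest of all 18. Per kb Vha68-1 made up 20.1, 21.4 and 15.4% of the A subunit counts in injured wild type pulldowns and 34.6, 26.04 and 28.9% in injured dnmnatOE (two-sided exact permutation p = 0.1, the smallest possible, adjusted 0.204).

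Vha55 pulldowns held 299, 234 and 219.9 CPM in background, 225, 272 and 307 in wild type and 198, 305 and 197 in dnmnatOE uninjured. Injured pulldowns held 176, 175 and 299 CPM in background, 210.2, 211 and 274 in wild type and 184, 196 and 172 in dnmnatOE. Only in dnmnatOE were they all below the uninjured ones. Vha44 pulldowns held 104, 124 and 89.4 CPM in background, 86.3, 46.4 and 137 in wild type and 155, 119 and 159.9 in dnmnatOE uninjured. Their injured values were 91.8, 51.6 and 100.1 CPM in background, 63.6, 90.2 and 132 in wild type and 114.5, 80.2 and 147 in dnmnatOE. Neither gene was called in any of the 10 pulldown contrasts.

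Vha36-1 pulldowns held 21.2, 19.8 and 11.7 CPM in background, 71.9, 63.0 and 8.87 in wild type and 23.7, 22.4 and 20.3 in dnmnatOE uninjured. Its injured values were 45.4, 12.6 and 41.7 CPM in background, 10.4, 31.4 and 10.4 in wild type and 23.9, 11.8 and 21.98 in dnmnatOE. Wild type uninjured replicates 1 and 2 stood highest, and replicate 3 lowest of all 18. Vha36-3 pulldowns held 13.1, 10.4 and 1.47 CPM in background, 26.2, 13.3 and 0 in wild type and 8.94, 8.05 and 9.41 in dnmnatOE uninjured. Injured ones held 1.01, 6.29 and 19.5 CPM in background, 4.44, 0 and 1.04 in wild type and 13.2, 4.72 and 0.611 in dnmnatOE, so that libraries of 1 group spanned most of the range. Vha14-1 pulldowns held 5.71, 15.6 and 5.86 CPM in background, 17.01, 26.5 and 47.9 in wild type and 23.2, 13.4 and 25.7 in dnmnatOE uninjured. Injured ones held 9.08, 5.03 and 0 CPM in background, 5.92, 7.10 and 22.8 in wild type and 19.5, 0 and 11.6 in dnmnatOE. No wild type group was apart from the other here, since injured replicate 3 passed uninjured replicate 1.

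Vha13 pulldowns held 40.0, 53.1 and 54.2 CPM in background, 68.0, 28.2 and 63.9 in wild type and 79.5, 70.6 and 54.5 in dnmnatOE uninjured. The injured ones held 75.7, 90.6 and 59.8 CPM in background, 85.8, 42.6 and 68.4 in wild type and 71.1, 47.2 and 67.2 in dnmnatOE, all above the uninjured ones in background alone. VhaSFD pulldowns held 69.4, 78.1 and 38.1 CPM in background, 40.6, 74.6 and 192 in wild type and 83.1, 80.5 and 80.2 in dnmnatOE uninjured. The injured values were 48.4, 62.9 and 122 CPM in background, 32.6, 72.0 and 95.3 in wild type and 101, 49.6 and 73.9 in dnmnatOE. Wild type uninjured replicate 3 was the highest of all, and neither gene was called.

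Of the V0 genes, Vha16-1 pulldowns held 789, 817 and 818 CPM in background, 765, 458 and 635 in wild type and 646, 598 and 677 in dnmnatOE uninjured. At 7 dpa the values were 726, 668 and 622 CPM in background, 648, 589.9 and 656 in wild type and 550.0, 582 and 488 in dnmnatOE. Its injured libraries were below the uninjured ones in background and dnmnatOE, with changes of -0.27 ± 0.14 (adjusted p = 0.434) and -0.25 ± 0.14 (adjusted p = 0.316). Vha100-1 held 178, 135 and 191 CPM in background, 161, 131 and 209 in wild type and 133, 195 and 133 in dnmnatOE uninjured. Injured pulldowns held 241, 165 and 131 CPM in background, 169, 124 and 195 in wild type and 186, 184 and 206 in dnmnatOE, with overlapping groups in every genotype. VhaAC39-1 held 54.7, 62.5 and 60.1 CPM in background, 105, 73.0 and 85.2 in wild type and 125, 106 and 121 in dnmnatOE uninjured. After injury the values were 75.7, 81.8 and 124 CPM in background, 149, 51.7 and 63.2 in wild type and 78.7, 68.4 and 87.3 in dnmnatOE. Its injured libraries all lay above the uninjured ones in background and all below them in dnmnatOE, 0.66 ± 0.35 (adjusted p = 0.436) and -0.58 ± 0.33 (adjusted p = 0.334).

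VhaAC45RP held 73.5, 106 and 64.5 CPM in background, 74.6, 39.8 and 90.5 in wild type and 88.5, 71.5 and 66.8 in dnmnatOE uninjured. Its injured values were 52.5, 61.7 and 51.5 CPM in background, 28.1, 35.5 and 63.2 in wild type and 96.3, 74.3 and 76.9 in dnmnatOE. The injured libraries of VhaAC45RP were all below the uninjured ones in background and overlapped them in the other genotypes, without a call. VhaM9.7-a, too low for the test, held 0.816, 0 and 7.33 CPM in background, 0, 0 and 0 in wild type and 0.894, 2.68 and 3.96 in dnmnatOE uninjured and 0, 0 and 1.39 CPM in background, 2.96, 10.1 and 0 in wild type and 0.629, 5.90 and 1.22 in dnmnatOE at 7 dpa. VhaM9.7-c held 3.26, 0 and 1.47 CPM in background, 0, 6.63 and 19.5 in wild type and 10.7, 10.7 and 6.44 in dnmnatOE uninjured. At 7 dpa the values were 0, 1.26 and 6.95 CPM in background, 7.40, 1.01 and 3.11 in wild type and 9.44, 1.18 and 3.66 in dnmnatOE. Vha100-5 had 3 counts in 1 pulldown and 0 in the others. Groups of VhaM9.7-c overlapped in every genotype.

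Between genotypes in pulldowns, edgeR and DESeq2 called 0 members in dnmnatOE against wild type uninjured and at 7 dpa. Of all genes edgeR called 6.64% and 2.61%. At an unadjusted p under 0.05 there were 1 of 19 members and 1356 of 7213 genes uninjured, and 3 members and 794 genes at 7 dpa. Without wild type uninjured replicate 3, Vha44 was called higher in uninjured dnmnatOE (1.12, adjusted p = 0.0474). In wild type against background uninjured edgeR called 0, against 3.01% of all genes, with 3 members and 1127 genes at an unadjusted p under 0.05. There DESeq2 called VhaPPA1-1 lower (-1.29, adjusted p = 0.0465). In dnmnatOE against background edgeR called 0 uninjured, against 5.55% of all genes, where DESeq2 called VhaAC39-1 higher (0.98, adjusted p = 0.029). At 7 dpa edgeR and DESeq2 called 0, against 4.69% of all genes called by edgeR. At an unadjusted p under 0.05 there were 2 members and 1029 genes uninjured, and 1 member and 1042 genes at 7 dpa.

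Between pulldowns and inputs the V-ATPase genes differed widely, also in the background flies that hold no tagged ribosome. In uninjured background 11 of 20 members were lower and 1 higher in pulldowns, against 21.6% lower and 14.8% higher among 9860 genes. Uninjured wild type had 7 lower and 1 higher (24.6% and 15.3%), and uninjured dnmnatOE 8 and 1 (18.7% and 16.6%). At 7 dpa background had 8 lower and 2 higher (18.9% and 13.6%), wild type 7 and 3 (20.7% and 14.6%), and dnmnatOE 6 and 3 (23.3% and 19.7%). With only the groups compared in the fit, uninjured wild type had 4 lower and 0 higher.

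Vha13, VhaAC45RP, VhaM9.7-a and VhaM9.7-b were lower in pulldowns in all 6 groups. Vha13 stood at -2.78 ± 0.21 (adjusted p = 3.83e-16), -2.37 ± 0.21 and -2.13 ± 0.19 in uninjured background, wild type and dnmnatOE and at -1.57 ± 0.20, -1.62 ± 0.20 and -1.58 ± 0.19 at 7 dpa, and lost no call under any alternative. VhaM9.7-a had 0 counts in all uninjured wild type pulldowns, at least 7.28-fold below the mean of the inputs against the floor of 3 counts per library. The 7 dpa call of VhaM9.7-a in wild type was lost without pulldown replicate 3 (-1.63, adjusted p = 0.0535). The 7 dpa dnmnatOE call of VhaM9.7-b was lost without input replicate 1 (-1.19, 0.0536) or pulldown replicate 3 (-0.92, 0.153), and that of VhaAC45RP without input replicate 3 (-0.60) or pulldown replicate 2 (-0.52) or 3 (-0.52). With only the groups compared in the fit, the calls of VhaAC45RP in injured dnmnatOE (-0.48) and of VhaM9.7-b in uninjured wild type (-2.69, adjusted p = 0.0548) were lost.

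Vha68-1 and Vha14-1 were lower in 5 of 6 groups, and Vha36-1 and VhaPPA1-1 in 4, but not all of these calls held. Of the 5 calls of Vha68-1, 2 were kept under every alternative run, as were 3 of the 5 of Vha14-1 and 2 of the 4 each of Vha36-1 and VhaPPA1-1. In injured wild type Vha68-1 was lost in 4 of 13 alternatives (-0.66 without pulldown replicate 3, adjusted p = 0.152), Vha36-1 in 3 (-0.94 without the same library, 0.108) and Vha14-1 in 2 (-1.15 without pulldown replicate 2, 0.0997). VhaPPA1-1 was lost in 6 of 13 alternatives in uninjured background (-0.53 without pulldown replicate 3, adjusted p = 0.149) and in 3 in injured background (-0.50 without pulldown replicate 1, 0.221). Fitting only the groups compared was among the losing alternatives for Vha68-1, Vha36-1 and VhaPPA1-1 in these groups, and no filter on low counts for VhaPPA1-1.

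On the other side Vha100-2 was higher in 5 groups, with 0.94 ± 0.28 (adjusted p = 0.00564) in uninjured background, and 0.43 ± 0.27 (adjusted p = 0.198) in injured dnmnatOE, the group not called. Its calls were lost without 1 library in 4 of the 5: without pulldown replicate 1 in uninjured background (0.69) and injured wild type (0.54), without pulldown replicate 2 in uninjured wild type (0.54), and without input replicate 2 or 3 or pulldown replicate 1 or 3 in uninjured dnmnatOE (0.64 to 0.72). The call in uninjured dnmnatOE was also lost with DESeq2 (0.65, adjusted p = 0.0508) and upper-quartile scaling (0.63, 0.0529), and that in uninjured wild type with only the groups compared (1.06, 0.119). Vha100-1 was higher in all 3 groups at 7 dpa, by 0.62 ± 0.19, 0.82 ± 0.19 and 1.16 ± 0.18 (adjusted p = 6.74e-07), of which the background call was lost in 5 of 13 alternatives: with DESeq2 (0.58), RLE (0.58) and upper-quartile scaling (0.52) and without input replicate 3 (0.58) or pulldown replicate 1 (0.36). In uninjured background Vha100-1 was called higher only with the groups compared alone in the fit (0.62, adjusted p = 0.00791) or without pulldown replicate 2 (0.61, 0.0161). Vha68-2 was called higher in injured wild type, 1.05 ± 0.19 (adjusted p = 1.08e-05), and in injured dnmnatOE with only the groups compared (0.66) or without pulldown replicate 1 (0.69). Vha26 was called higher in injured dnmnatOE, 0.77 ± 0.14 (adjusted p = 1.26e-05), and in injured wild type with only the groups compared (0.64) and in 4 of the refits that left out 1 library. Vha55 was called higher in injured dnmnatOE, 0.70 ± 0.16 (adjusted p = 0.000381), a call lost with DESeq2 (0.59) and RLE (0.59). In injured wild type Vha55 was called with ribosomal RNA genes left out (0.63), with only the groups compared (0.69) and in 5 of the refits that left out 1 library. Differences between the groups were not tested here.

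The members lower in pulldowns were mostly the short ones. Across the 20 members the Spearman correlation of the log2 fold change with exon length was 0.824, 0.520 and 0.592 in uninjured background, wild type and dnmnatOE and 0.791, 0.722 and 0.6 at 7 dpa. Across 9845 genes it was 0.462 to 0.540, and the points of each group share the same libraries. The 4 members under 1 kb had medians from -2.97 to -1.55 (all genes -2.50 to -1.45), and the 9 members of 2 to 4 kb from 0.01 to 0.53. Poly-A selection differed between the fractions, so the RNA population and the library type cannot be told apart in these differences.

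**Figure D5:**
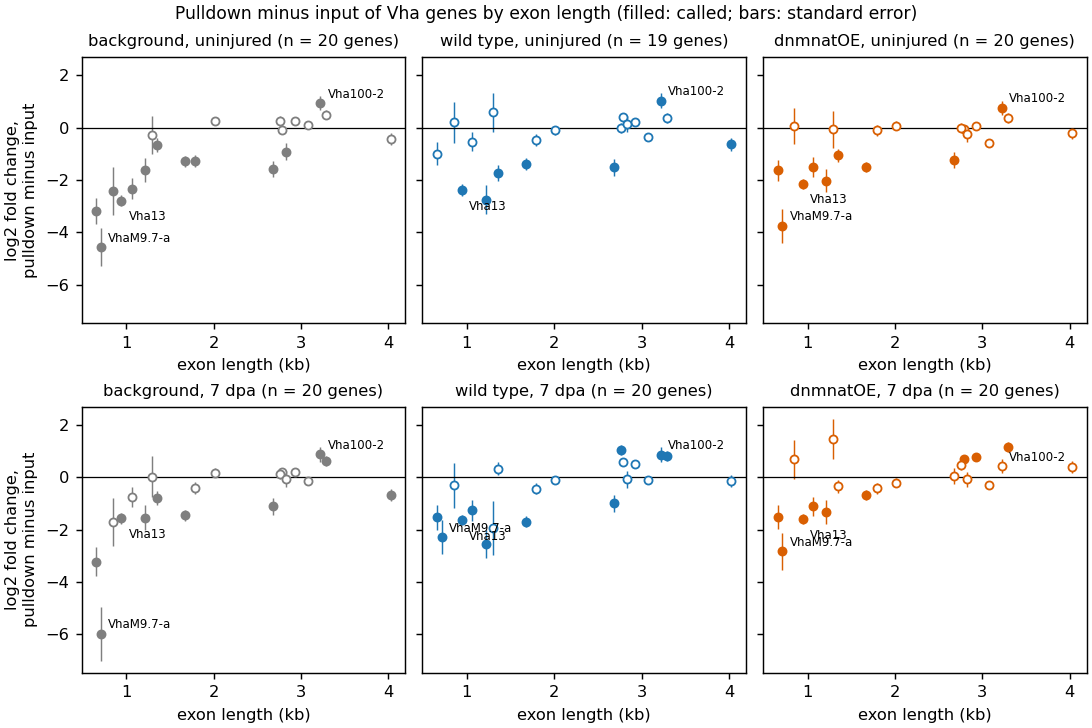
Log2 fold change of pulldown over input against exon length in kb for the V-ATPase genes in the 6 combinations of genotype and condition, 1 point per gene. VhaM9.7-a is left out of uninjured wild type, where its pulldowns were at 0. Genes under 1 kb lie toward the bottom of the panels, untagged background included, where the correlation is 0.824 uninjured.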

How the data were processed

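The labels describe RNA-seq of TRAP inputs and pulldowns from heads. The authors trimmed paired reads, aligned them with Hisat2 to the FlyBase r6.43 genome and deposited raw counts per gene from Htseq-Count. Versions, counting mode and strand setting are not given in the sources used here. The 5 summary lines of each file were left out. Symbols, positions and exon lengths came from Ensembl annotation of the same assembly (release 6), which matched 17559 of 17611 genes. The V-ATPase genes and the lists compared with them were chosen with earlier results of these data known.

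Counts were tested with edgeR 4.0.16 (R 4.3.3, limma 3.58.1), using TMM scaling, filterByExpr, 1 coefficient per group and robust quasi-likelihood fits, in 3 fits: 18 inputs, 18 pulldowns and all 36 libraries. Adjusted p-values are Benjamini-Hochberg values over all genes tested, and a gene was called at 0.05 or less where the log2 fold change was past 0.6 in size, in each of 24 contrasts. The biological coefficient of variation was 0.198 in inputs and 0.46 in pulldowns. Values are named in every library for members called in inputs or pulldowns and for the gene with the highest level of each subunit class, and at most 3 genes per other list. Alternatives were DESeq2 1.42.0, RLE and upper-quartile scaling, no filter on low counts, no fold threshold, only the groups compared, ribosomal RNA genes left out, a replicate block and leaving out each library. The scripts were tested on simulated counts. The floor of 3 counts per library covers counting error only, while the standard errors measure the spread between libraries.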

Additional observations from a re-analysis of the deposited data

Results flagged for a closer look

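The injury change of 4 V-ATPase genes differed between dnmnatOE and wild type inputs by edgeR's test of the difference itself (Benjamini-Hochberg adjusted). The difference in log2 fold change was -0.803 for Vha68-1, -0.773 for Vha26, -0.67 for Vha55 and -1.413 for Vha36-3, with the dnmnatOE change the more negative in each. Of all 10437 genes 9.15% were called in that direction. Without dnmnatOE 7 dpa replicate 3 the Vha55 difference was -0.593, under the fold threshold.

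In 3 further cases all 3 injured libraries of one genotype lay on the opposite side of the uninjured ones from those of another genotype, and the difference between the genotypes was not tested in any of them. Vha68-2 inputs were higher after injury in background (0.17) and lower in dnmnatOE (-0.084). VhaPPA1-1 inputs were lower in background (-0.194) and higher in wild type (0.136). VhaAC39-1 pulldowns were higher in background (0.662) and lower in dnmnatOE (-0.583). None of these 6 changes was called. Such separation was common: of 10437 genes in inputs, 2042 lay all below and 2410 all above in background. In wild type inputs these counts were 2458 and 2849, and in dnmnatOE 3207 and 3344. Of 7213 genes in pulldowns, 635 and 656 were so separated in background and 1312 and 1409 in dnmnatOE. How many of all genes lay on opposite sides in 2 genotypes was not counted.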

How the results depend on the processing

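No call turned its direction under the alternatives run. Of 80 calls of members, DESeq2, no filter on low counts and leaving out ribosomal RNA genes each lost 3, RLE and upper-quartile scaling 2 each, and fitting only the groups compared 11. The call of Vha100-5 was not tested with only the groups compared. Leaving out 1 library at a time, each call was refitted once for every library behind it. In these 504 refits the call was kept in 457 and lost in 47, so that 24 of the 80 calls were lost in at least 1 refit and 56 in none. Without a fold threshold the members called after injury in inputs became 9 in background, 10 in wild type and 17 in dnmnatOE, those in dnmnatOE against wild type inputs 5 uninjured and 7 at 7 dpa, those in wild type against background inputs 10 and 5, and those whose injury change differed 7. How many of all genes were called so was not counted. At an unadjusted p under 0.05, 3723, 5117 and 6611 of 10437 genes differed after injury in background, wild type and dnmnatOE inputs, and 10, 11 and 17 of 21 members. These counts are thus not a result about the members alone. Upper-quartile scaling, chosen after seeing the data, gave 4 in injured wild type inputs and 14 in injured dnmnatOE inputs. It gave 1 lower in wild type against background inputs uninjured (1.83% of all genes lower) and at 7 dpa (7.1%), where DESeq2 and RLE also gave 1 (3.17% and 3.72%). It moved the share of all calls that were higher from 14.6% to 26% for dnmnatOE against wild type uninjured, from 45.1% to 32.5% at 7 dpa, from 82.4% to 71.9% for wild type against background uninjured, from 79.1% to 56.1% at 7 dpa, from 58.6% to 41.7% for the differing injury changes, and from 51.2% to 40.2% for wild type against background uninjured pulldowns.

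In pulldowns DESeq2 gave 2 members higher in injured wild type, against 3.36% of all genes. Against background uninjured it gave 1 lower in wild type (1.73% of all genes) and 1 higher in dnmnatOE (1.7%). Fitting only the groups compared gave 1 higher in dnmnatOE against background uninjured (4.64% of all genes higher). It gave 0 in wild type against background at 7 dpa (3.09% higher and 0.898% lower). Between pulldown and input of uninjured wild type it gave 4, all lower (17.1% of all genes lower). Leaving out ribosomal RNA genes gave 0 in injured dnmnatOE, against 7.43% of all genes higher and 4.34% lower. Leaving out 1 library gave 1 to 2 in injured wild type inputs and pulldowns, and 0 to 1 in wild type against background inputs at both times, in injured dnmnatOE pulldowns, in wild type against background pulldowns at 7 dpa and in dnmnatOE against wild type uninjured pulldowns. Beyond the alternatives' own thresholds, samples and scalings, the cause was not tested.

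Replicate numbers are shared between groups, but same-numbered libraries did not deviate together (residual correlations -0.029 to 0.039 in inputs and -0.037 to 0.031 in pulldowns, 45 pairs each). With the replicate block the count of members called after injury was 9 in dnmnatOE inputs, and the block moved none of the 24 counts beyond 1.5 times and lost none of the 80 calls. A planned look at promoter motifs was not run. Pulldowns were shallower than inputs, which limits calls for genes such as VhaM9.7-a.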

Other observations

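Rbcn-3A, a gene of the RAVE complex that joins V1 to V0, was called lower after injury in dnmnatOE inputs and higher in dnmnatOE pulldowns, where its log2 fold change was 0.64 (edgeR, adjusted p = 0.00085). The lysosomal protease gene cathD was higher in both, by 2.20 in these pulldowns. Of the marker lists not given above, 3, 4 and 3 of 5 gut markers were called higher in injured background, wild type and dnmnatOE inputs. Their levels were low. The 5 genes summed to 0.126 to 1.02 CPM in uninjured background inputs and 2.56 to 4.93 at 7 dpa. In wild type the sums were 1.25 to 6.23 and 13.4 to 25.2 CPM, and in dnmnatOE 3.29 to 9.77 and 25.8 to 30.6 CPM. Of 2 renal tubule markers tested, 1 was called lower in dnmnatOE and none elsewhere, and the 1 testis marker tested was not called. The olfactory neuron markers were called lower in 3, 4 and 3 of 5 genes tested. Of all genes in these inputs, 9.99%, 17.8% and 26.5% were called higher and 5.25%, 10.7% and 24.2% lower.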
